A study of Mus musculus with 2 samples.

Results

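Committed neurogenic cells are retinal cells that are leaving the progenitor state for a neuronal fate, and here they are the cells of the mouse retina in which at least 2 of the 5 genes Atoh7, Olig2, Dll4, Tfap2d and Mybl1 were detected. A cell also had to hold 1000 or more unique molecular identifiers (UMIs, the tags that count single captured transcripts) outside the mitochondrial genes, and fewer than 4 of 10 genes of mitosis. By this rule 456 of the 7103 cells analysed were committed neurogenic, 210 from the control library and 246 from the Mettl3-CKO library. The members were thus chosen by their expression of these genes, and the levels of the 5 markers within them are a description and no finding.

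The retina is built by progenitors that divide, step out of the cell cycle and pass through a short neurogenic state before they mature. Proneural transcription factors of the basic helix-loop-helix family, such as Atoh7 and Neurog2, drive this step, while Notch signalling, triggered by Delta ligands on committed cells, keeps their neighbours undifferentiated. Olig2 marks progenitors close to their last division, Atoh7 is best known for its role in the birth of ganglion cells, Dll4 is a Delta ligand, Tfap2d belongs to the AP-2 transcription factors and Mybl1 to the Myb family. In the first week after birth, mainly rods, bipolar cells and Müller glia are still being produced.

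Single-cell RNA sequencing of whole retinas at postnatal day 7 compared control with Mettl3-CKO pups, to ask what the loss of METTL3, the methyltransferase that places N6-methyladenosine (m6A) on RNA, does to late retinal development. The Mettl3-CKO pups were Six3-Cre+; Mettl3 floxed/floxed, so that Cre acted in retinal progenitors, and the study showed efficient loss of the protein in the central retina, while the whole retina was sequenced. The control pups came from the same litter, and their alleles are not given in the sources used here. Each library pooled 2 retinas from 2 pups, so that each genotype was 1 library without a replicate. No p-value could be computed. All intervals below are 95% intervals that cover counting error only, exact for UMIs and for shares of cells, and those on UMIs do not cover the spread between cells.

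The deposited matrices as read here ended early and gave 3994 of 5995 control barcodes and 3109 of 6992 Mettl3-CKO barcodes. Of these, 3541 control and 2789 Mettl3-CKO cells had 1000 UMIs or more, and shares of cells below are of these. Cells with 4 or more mitotic genes, called cycling, numbered 152 and 243. In the committed neurogenic cells, Xist, the RNA of the inactive X chromosome in female cells, was detected in 0 of 210 control cells and in 150 of 246 Mettl3-CKO cells (61.0%), so the libraries differed in the sex of their pups as well as in genotype, and results are also given for Mettl3-CKO cells with and without Xist. Mettl3 itself had 40.4 UMIs per 1000000 UMIs (CPM, the unit of all levels below) in the control and 40.2 CPM in the Mettl3-CKO committed neurogenic cells, from 72 and 83 UMIs. The libraries read the 3′ end of transcripts, which may lie outside the deleted part, so this level does not check the deletion.

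The committed neurogenic cells were deeply sampled. Their median was 8039 UMIs in the control, with a range of 1369 to 22554, and 7685 in the Mettl3-CKO library, with a range of 1102 to 30547. The remaining non-cycling cells had medians of 4625 and 5186 UMIs. A rule that asks for 2 detected genes takes deep cells more easily than shallow ones. Of control cells with at least 2000 UMIs, 6.53% met the rule, and 2.42% did after thinning to 2000 UMIs per cell. Thinning lowers detection in every cell, so this fall does not measure the part of depth in the choice. Together the members held 1784243 control and 2066182 Mettl3-CKO UMIs. Of the 5 cell barcodes that both libraries shared, 0 were in members.

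Of the genes that chose the cells, Mybl1 was the most widely shared. It was detected in 94.3% of control and 93.1% of Mettl3-CKO committed neurogenic cells, so that most cells were Mybl1-positive cells with 1 further marker. Mybl1 was also read in cells that carry few of the other markers. In Müller-marker cells, those with at least 12 of 18 Müller glia genes, it was detected in 13.0% of 332 control and 17.0% of 270 Mettl3-CKO cells, at median depths of 9462.5 and 9059.5 UMIs. The other 4 genes were close to absent there. In these Müller-marker cells, Atoh7 was detected in 0.904% and 0.370%, Olig2 in 1.81% of the control cells and in none of the Mettl3-CKO cells, Dll4 in none and 0.370%, and Tfap2d in none of either library.

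In the committed neurogenic cells, Atoh7 was detected in 37.6% of control and 53.7% of Mettl3-CKO cells. Olig2 was detected in 42.9% and 38.6%, Dll4 in 35.2% and 22.0%, and Tfap2d in 21.4% and 22.8% of them. By the rule, any other non-cycling cell with Atoh7 held it as its single marker. Rod-marker cells, those with at least 6 of 12 rod genes among the non-cycling cells outside the members, held Atoh7 in 3.60% and 4.52% of cells. Their median depths were 4270 and 4768 UMIs.

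**Figure D1:**
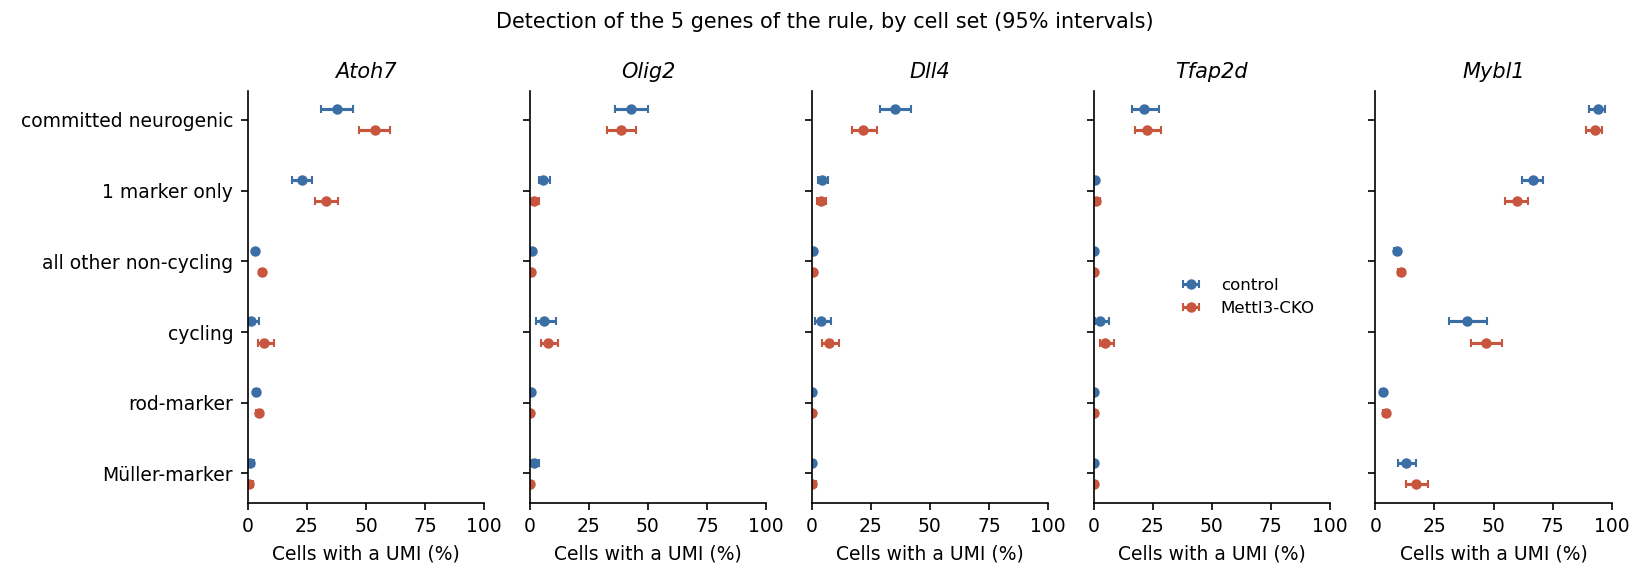
Share of cells with at least 1 UMI of each gene of the rule (x axis, %) in 6 sets of cells (y axis), for the control (blue) and Mettl3-CKO (red) library, with exact 95% binomial intervals. The cells of the first row were chosen by these genes. Mybl1 was detected in 94.3% and 93.1% of them and, unlike the other 4 genes, also in 13.0% and 17.0% of Müller-marker cells.

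Most committed neurogenic cells stood just inside the rule. Exactly 2 markers were detected in 151 control (71.9%) and 178 Mettl3-CKO cells (72.4%), 3 markers in 52 and 62 cells, 4 markers in 7 and 6 cells, and no cell held all 5. Just outside the rule lay 431 control and 410 Mettl3-CKO cells with 1 marker. The 10 control and 28 Mettl3-CKO cells that held 2 markers but were cycling were left out by the mitotic genes. No mitotic gene at all was detected in 160 control (76.2%) and 185 Mettl3-CKO members (75.2%).

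Atoh7 and Olig2 were rarely found in the same cell. Both were detected in 10 control (4.76%) and 21 Mettl3-CKO committed neurogenic cells (8.54%). Olig2 without Atoh7 was found in 80 control and 74 Mettl3-CKO cells, Atoh7 without Olig2 in 69 and 111 cells, and neither in 51 and 40 cells. Over all non-cycling cells, the 10 control cells with both compare with 6.01 that independent detection would give, and the 21 Mettl3-CKO cells with 10.8. Olig2 and Dll4, by contrast, met in 30 control cells where 3.16 would be given by independence, and in 20 Mettl3-CKO cells where 2.83 would be. These ratios of observed to independent detection were 1.66 and 1.94 for Atoh7 with Olig2 and 9.51 and 7.06 for Olig2 with Dll4. All 10 pairs lay above 1 before thinning. Deeper cells show more of any gene, which raises all such ratios. After thinning to 2000 UMIs per cell, 1 control cell and 5 Mettl3-CKO cells held Atoh7 with Olig2, against 1.12 and 2.32 under independence.

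Set against all other non-cycling cells, the committed neurogenic cells held more RNA of 2 Notch ligands and of 6 of 12 proneural factors outside the rule. Since the cells were chosen by expression, these differences describe them and were not tested. A gene was called when its CPM was at least 2-fold higher, or lower, in both libraries. Of 6042 genes outside the rule that had at least 100 UMIs in the members of both libraries together, 145 (2.4%) were higher and 169 (2.8%) were lower.

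Gadd45g, a stress and differentiation gene induced as precursors leave the cell cycle, was detected in 96.2% and 95.9% of the committed neurogenic cells. Its level was 3033 CPM in the control, against 395 CPM in the other cells, and 2602 against 407 CPM in the Mettl3-CKO library. In Müller-marker cells Gadd45g was detected in 41.3% and 35.6%. Of 11 cell cycle exit regulators it was the 1 higher gene, none was lower, and the list medians were 0.19 and 0.18. That list also holds cyclin genes such as Ccnd3 and Ccne1, and E2f1, and is not one of exit alone.

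Of the Notch ligands that passed the filter and were outside the rule, 2 of 2 were higher. Dll3 stood at 274 and 188 CPM against 37.2 and 33.0 CPM in the other cells, log2 ratios of 2.88 (2.70 to 3.05) and 2.51 (2.32 to 2.71). Dll1 stood at 145 and 109 CPM against 33.2 and 33.5 CPM. Of 12 proneural factors, 6 were higher and 0 lower, with a median log2 ratio of 1.11 in the control library and 1.0 in the other, where the median of all genes was 0.0089 and 0.027. Neurog2 had ratios of 3.59 and 2.78, Bhlhe22, which acts in amacrine and bipolar subtypes, of 1.74 and 2.01, and Neurod4 of 1.48 and 1.41. Neurod1, which is active in photoreceptor precursors, stood at -0.039 and -0.033, and Insm1 at -0.26 and -0.18.

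The neurogenic commitment list gave 5 of 15 higher and 0 lower. Among these were Gadd45g, the signalling regulator Rgs16, with log2 ratios of 2.43 and 2.22, and Hes6, an antagonist of Hes1, with 1.19 and 1.08. The neuronal tubulin Tubb3 had 1.22 and 1.40, and Mfng, a Fringe enzyme that modifies Notch receptors, had 1.55 and 1.21. Notch effectors did not follow the ligands. Of 7 Notch targets and Hes family genes, Hes6 was higher, and Hes1 and the inhibitor of differentiation Id3 were lower, Hes1 with -1.05 and -1.99 and Id3 with -1.63 and -2.17.

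Outside the lists, the highest folds belonged to Wnt5b, a secreted Wnt ligand, with 75.1 CPM against 6.87 CPM in control cells and 67.8 against 9.51 CPM in the Mettl3-CKO library. The heparan sulfate sulfotransferase Hs3st1 followed with log2 ratios of 2.79 and 2.85, and the axon guidance receptor Robo1 with 2.68 and 2.69. The pseudokinase Peak1 had 2.30 and 2.43, the secreted protein Cthrc1 had 2.35 and 2.17, and the metalloprotease Adamts1 had 2.02 and 2.05. Against only those other cells that were as deep as the median member, 81 genes were higher in place of 145.

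**Figure D2:**
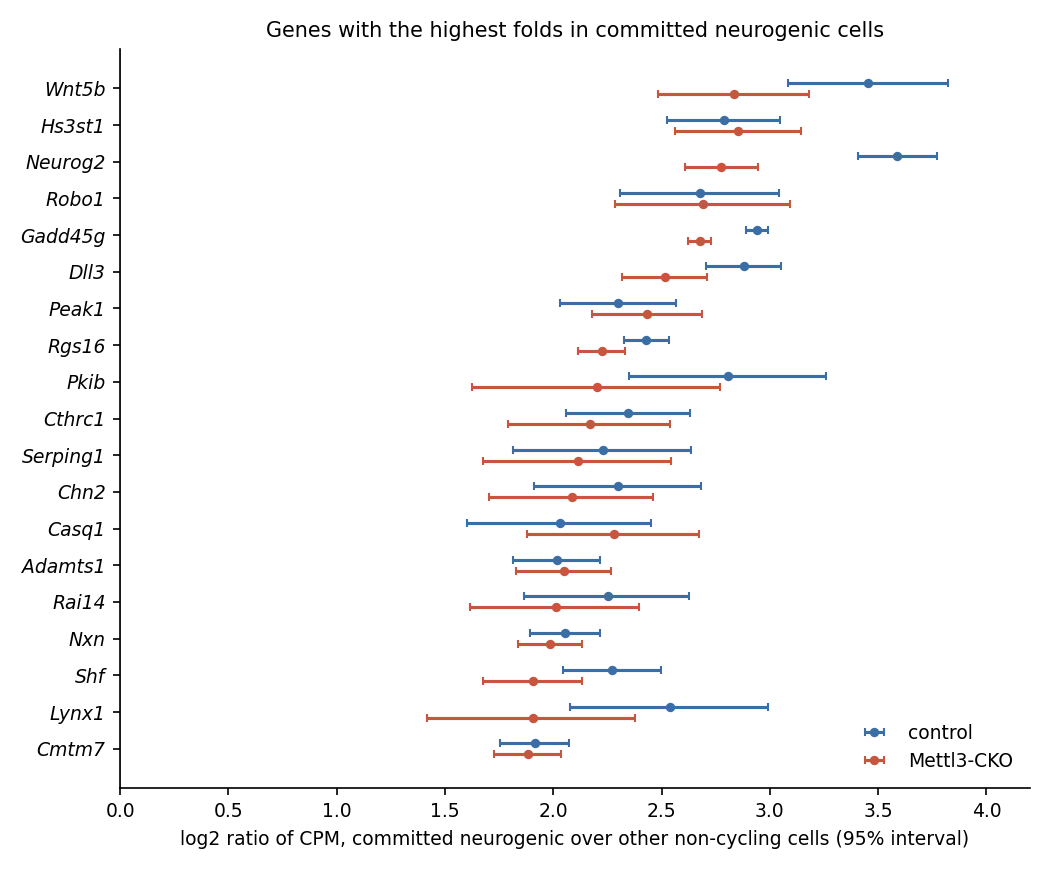
Of the 20 genes outside the rule with the highest CPM in committed neurogenic cells over all other non-cycling cells, the 19 reported here, ranked by the smaller of the 2 libraries. The x axis is the log2 ratio of CPM and the bars are 95% intervals for counting error. All 19 intervals lie above 0 in both libraries, from Wnt5b at 3.45 and 2.83 to Cmtm7 at 1.91 and 1.88.

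The label was checked against markers of other cells. All 10 rod markers that passed the filter were lower in the members, with median log2 ratios of -3.69 (control) and -2.80 (Mettl3-CKO), and the 12 rod markers together had 876 and 1507 CPM against 11230 and 10915 CPM in the other cells. Of 13 Müller glia markers, 6 were lower and 1 was higher, namely Sox9, a factor that progenitors and Müller glia share, with 1.18 and 1.24. Microglia markers summed to 15.1 and 16.9 CPM, against 495 and 626 CPM in the other cells. Ganglion cell genes gave a mixed picture. Of 14 listed ganglion cell markers, 2 passed the filter, of which 1 was higher in the members and 0 were lower. Pou4f1, Nefl, Nefm and Gap43 were detected in some members of both libraries. Pou4f2, Pou4f3, Thy1, Sncg, Rbpms and Slc17a6 had 0 UMIs in members of both libraries. A count of 0 allows up to 3 UMIs in each, or 1.68 CPM in the control and 1.45 CPM in the Mettl3-CKO library. Otx2, which photoreceptor and bipolar precursors need, stood at 3247 and 3226 CPM against 1806 and 1808 CPM.

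Rod transcripts within the members sat in few cells. The 14 control and 16 Mettl3-CKO members with at least 6 of 12 rod markers held 80.8% and 88.3% of all rod marker UMIs of the members, and 11 of the 14 and 11 of the 16 were among the 5% of cells with the highest doublet score. At the same time 61 control and 78 Mettl3-CKO members had no rod marker UMI. In all, 20 control (9.52%) and 16 Mettl3-CKO members (6.50%) had such a doublet score, against 5.85% and 5.35% of other cells.

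The members were next compared with 2 other sets of cells that express genes of neurogenesis. Early neurogenic cells, which held at least 2 of 4 genes, Neurog2, Dll1 and Eya2 among them, and were no members, numbered 203 and 173. Of the 6042 genes, 103 (1.7%) were at least 2-fold higher in the members and 142 (2.35%) were lower. Neurod4, a proneural factor of later precursors, stood at 1763 CPM against 327 CPM in the control and at 1829 against 419 CPM in the Mettl3-CKO library, and 6 of 9 rod and bipolar precursor markers were higher. The small GTPase Gem had 116 against 26.3 CPM and 128 against 18.8 CPM. On the other side, 11 of 13 Müller glia markers and 6 of 7 Notch targets and Hes family genes were lower in the members. Rlbp1, a retinoid-binding protein of Müller glia, stood at 115 against 1056 CPM and at 42.6 against 494 CPM, and Id3 at 92.5 against 833 CPM and 50.3 against 536 CPM.

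Neurod4-positive cells, with at least 2 of Neurod4, Prdm1, Prdm8 and Neurod1, were a broad set of 2056 and 1577 cells, 58.1% and 56.5% of each library. Against them, 325 genes (5.38%) were higher in the members and 207 (3.43%) lower, more than against all other cells. Neurog2 stood at 309 against 13.9 CPM and at 272 against 19.7 CPM, and the long noncoding RNA Miat at 532 against 40.9 CPM and 445 against 44.7 CPM. Cdc25b, a phosphatase of the cell cycle, had 38.7 against 3.02 CPM and 35.3 against 3.87 CPM. The genes lowest in the members were those of rods. Nr2e3, a rod nuclear receptor, had log2 ratios of -4.17 and -3.74, the rod factor Nrl had -3.83 and -3.06, and the rod arrestin Sag had -3.76 and -3.11. Of the members, 91 control and 93 Mettl3-CKO cells also met the early neurogenic genes and 183 and 230 the Neurod4-positive genes, with 69 and 78 cells meeting both.

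The cells with Olig2 and those with Atoh7 differed in the levels of a small share of genes. For this comparison, which was chosen after the data had been seen, members with Olig2 and no Atoh7 UMI were set against members with Atoh7 and no Olig2 UMI. Median depths were 8764 and 7095 UMIs in the control and 7937.5 and 7366 UMIs in the Mettl3-CKO library. Of 4898 genes with at least 100 UMIs in all these cells of both libraries together, 95 (1.94%) were at least 2-fold higher in the Olig2 cells in both libraries and 130 (2.65%) were lower.

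Neurog2 showed the largest ratio in the direction of Olig2. It stood at 654 CPM in Olig2 cells and 20.6 CPM in Atoh7 cells of the control, and at 736 and 57.0 CPM in the Mettl3-CKO library. By cells, Neurog2 was detected in 67.5% of control Olig2 cells and 8.7% of control Atoh7 cells, and in 63.5% and 9.0% in the Mettl3-CKO library. Müller-marker cells gave 15.4% and 13.0%, so the detection in Atoh7 cells was not above that in another cell type. The log2 ratios of Neurog2 were 4.99 (4.14 to 6.0) and 3.69 (3.28 to 4.13).

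Further genes were higher in the Olig2 cells. Dll1 and Dll3, 2 of 2 further Notch ligands, were both higher, Dll1 with log2 ratios of 1.74 and 2.18 and Dll3 with 1.0 and 1.39. Cdkn1c, an inhibitor of cyclin-dependent kinases, stood at 378 against 35.5 CPM and 205 against 47.3 CPM, and the G1 cyclin Ccnd1 at 711 against 131 CPM and 628 against 216 CPM. Cdc25b had 73.4 against 11.2 CPM and 89.5 against 6.45 CPM. Of 13 Müller glia markers 4 were higher and none lower, with medians of 0.92 and 0.73, and of 13 progenitor markers 3 were higher and none lower, with medians of 1.31 and 0.48. In the list of cell cycle exit regulators, 4 of 9 were higher in Olig2 cells and 0 lower, Gadd45g among them with 1.35 and 1.14. Since the list also holds cyclin genes, this count is not one of exit alone. The growth factor Ptn, found in progenitors and glia, stood at 554 against 110 CPM and 373 against 52.7 CPM, and Kdr, a receptor for vascular endothelial growth factor, at 299 against 48.6 CPM and 383 against 51.6 CPM. Kdr is on the vascular marker list. In members of both libraries the endothelial gene Cdh5 and the pericyte genes Rgs5 and Kcnj8 had 0 UMIs. Pecam1, Cldn5, Pdgfrb and Cspg4, also on that list, were detected in some members of both libraries. In Müller-marker cells Kdr reached 643 and 664 CPM.

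Several photoreceptor genes were higher in the Atoh7 cells. Gngt2, the gamma subunit of the cone transducin, stood at 922 CPM in Atoh7 cells against 178 CPM in Olig2 cells of the control, and at 922 against 76.5 CPM in the Mettl3-CKO library. It was detected in 53.6% and 74.8% of Atoh7 cells and in 45.0% and 43.2% of Olig2 cells, where Müller-marker cells gave 32.5% and 37.4%. The beta subunit Gnb3 stood at 440 against 67.9 CPM and 359 against 57.0 CPM. Fabp7, a fatty acid-binding protein of precursors, had 3389 against 260 CPM and 3026 against 617 CPM. Of 9 photoreceptor fate factors, 3 were lower in Olig2 cells and 0 higher, namely Nrl with log2 ratios of -1.16 and -2.14, Mef2d with -1.08 and -1.54 and Casz1 with -1.34 and -1.03. Below 2-fold in at least 1 library lay Crx, with -1.08 and -0.81, and Prdm1, with -1.07 and -0.89. Neurod4 was at 2652 against 966 CPM in the control and 2132 against 1185 CPM in the Mettl3-CKO library. Otx2 did not separate the cells, at -0.069 (-0.16 to 0.021) and 0.036 (-0.046 to 0.12).

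A small number of cells carried the mature cone genes. All 3 cone markers that passed the filter were lower in Olig2 cells. Opn1sw, the short-wavelength opsin, had 411 CPM in control Atoh7 cells, but its UMIs came from 6 of 69 cells (8.7%), and in the Mettl3-CKO library 236 CPM came from 10 of 111 cells (9.0%), where 5.72% and 6.30% of Müller-marker cells held the gene. Pde6h, the cone phosphodiesterase subunit, had 814 and 176 CPM from 6 and 8 cells. Of 8 rod markers 5 were lower in Olig2 cells and none higher, with medians of -1.17 and -2.48. Cells with a high doublet score numbered 8 and 2 among Olig2 cells and 6 and 9 among Atoh7 cells.

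**Figure D3:**
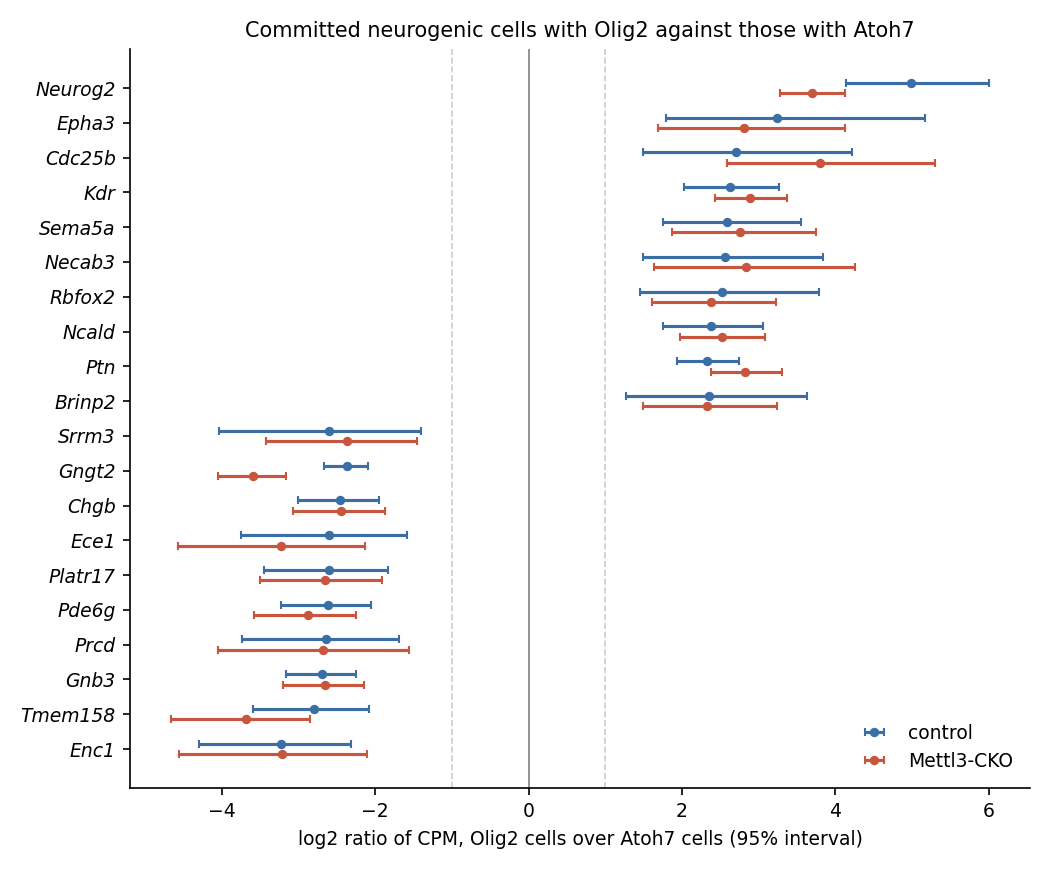
Genes that set committed neurogenic cells with Olig2 apart from those with Atoh7, the 10 highest and the 10 lowest by CPM ratio, ranked by the smaller of the 2 libraries. The x axis is the log2 ratio, the bars are 95% intervals for counting error, and dashed lines mark a 2-fold difference. Neurog2 lies furthest to the right, at 4.99 and 3.69, and Enc1 furthest to the left in the control, at -3.23.

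Turning to the genotypes, committed neurogenic cells made up 5.93% (5.18 to 6.76) of control and 8.82% (7.79 to 9.93) of Mettl3-CKO cells. The ratio of the shares was 1.49 (1.25 to 1.78). By comparison, cycling cells had a ratio of 2.03 (1.67 to 2.47), early neurogenic cells 1.08 (0.889 to 1.32), Müller-marker cells 1.03 (0.886 to 1.20) and rod-marker cells 0.883 (0.831 to 0.938). Thinning each cell to 2000 UMIs gave 1.44 (1.06 to 1.94), and thinning to 1000 UMIs gave 1.51 (0.978 to 2.33). When each gene of the rule was left out in turn it lay between 1.30, without Atoh7, and 1.59, without Dll4. Among cells of 4000 UMIs or more, members were 8.14% of the control, 11.4% of the Mettl3-CKO cells without Xist and 10.4% of those with Xist. Whether a second pair of libraries would differ in this way cannot be told from 1 library per genotype.

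The shares were also described by the Atoh7 and Olig2 UMIs of the members, which are values that the rule used and support no further statement. Members with Atoh7 and no Olig2 made up 1.95% of control and 3.98% of Mettl3-CKO cells, a ratio of 2.04 (1.52 to 2.75). For members with Olig2 and no Atoh7 the shares were 2.26% and 2.65%, a ratio of 1.17 (0.859 to 1.60), and for members with neither that ratio was 0.996 (0.660 to 1.5). Members with both had a ratio of 2.67 (1.26 to 5.65), from 10 and 21 cells. Within the members, the share of Atoh7 cells was 32.9% (control) and 45.1% (Mettl3-CKO), which gives a ratio of 1.37 (1.08 to 1.74).

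**Figure D4:**
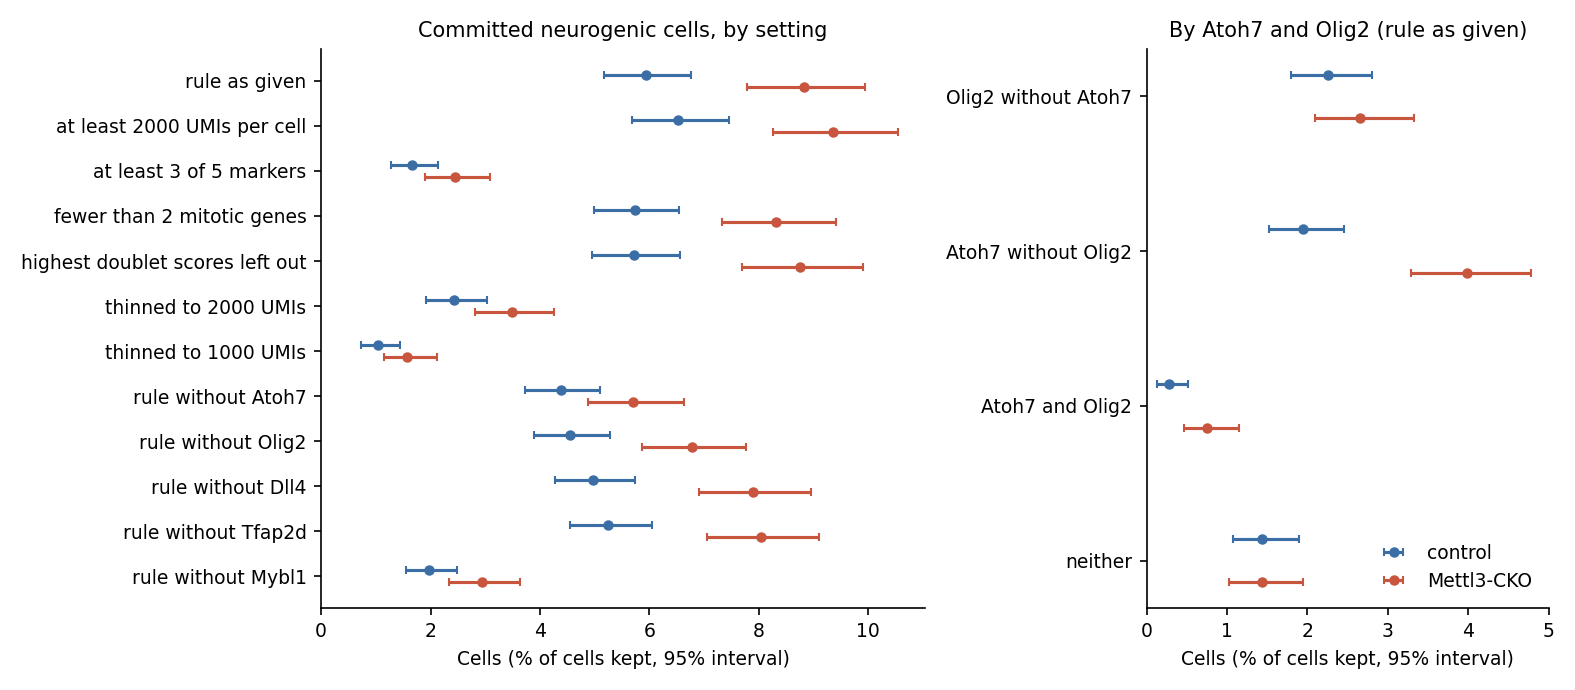
Left, committed neurogenic cells as a share of the cells kept (x axis, %) under the rule as given and 11 other settings (y axis), and right, the same cells divided by Atoh7 and Olig2. Points are the control (blue) and Mettl3-CKO (red) library and bars are exact 95% binomial intervals. The Mettl3-CKO share is the larger one under each setting on the left, and the distance on the right is largest for Atoh7 without Olig2, at 1.95% and 3.98%.

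Atoh7 lies on chromosome 10 at 63099651 to 63101279 of GRCm38. Over all cells of 1000 UMIs or more, its level was 16.5 CPM in the control and 45.9 CPM in the Mettl3-CKO library, a fold of 2.78 (2.45 to 3.16), and it was detected in 179 (5.06%) and 285 cells (10.2%). This measure takes in every cell and does not depend on the rule. Against the same control cells of 4000 UMIs or more, the fold was 2.64 (2.24 to 3.1) in Mettl3-CKO cells without Xist and 2.60 (2.26 to 2.99) in those with Xist. Without the highest doublet scores it was 2.98 (2.61 to 3.41), and the ratio of shares of cells with a UMI, 2.02 (1.69 to 2.42), was 2.03 (1.54 to 2.68) after thinning.

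By cell set, the Atoh7 level was 115 and 292 CPM in the members, 44.0 and 74.4 CPM in cells with 1 marker, and 1.20 and 16.1 CPM in cycling cells, the last from 2 and 44 UMIs. In rod-marker cells it was 8.84 and 8.61 CPM, a fold of 0.974 (0.676 to 1.40), and in early neurogenic cells 3.22 and 3.12 CPM. Within the Atoh7 cells of the members, the level was 353 CPM in the control and 486 CPM in the Mettl3-CKO library, a fold of 1.37 (1.16 to 1.64). Since these cells were chosen for an Atoh7 UMI, that level is a description.

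The other markers had smaller folds than Atoh7 over all cells, with those of Tfap2d and Mybl1 above 1. Over all cells, Olig2 on chromosome 16 had a fold of 0.936 (0.806 to 1.09), from 18.5 and 17.3 CPM, and Dll4 on chromosome 2 had 0.787 (0.619 to 0.999), from 8.05 and 6.33 CPM. Tfap2d on chromosome 1 had a fold of 1.58 (1.17 to 2.14), from 3.63 and 5.73 CPM. Mybl1, also on chromosome 1, had a fold of 1.08 (1.02 to 1.14), from 115 and 124 CPM. In the members, Olig2 had 149 CPM in the control and 104 CPM with Mettl3-CKO, a fold of 0.698 (0.580 to 0.839), and Dll4 had 70.6 and 35.3 CPM, a fold of 0.50 (0.370 to 0.673). These folds within the members move with the mix of Olig2 and Atoh7 cells. Within the Olig2 cells alone, Olig2 had 322 and 280 CPM, a fold of 0.870 (0.710 to 1.06), and Dll4 had 73.4 and 50.5 CPM, a fold of 0.688 (0.427 to 1.09).

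Levels of other genes in the members were compared between the libraries by size. Of 6047 genes with at least 100 UMIs in members of both libraries together, 228 (3.77%) were at least 1.5-fold higher in the Mettl3-CKO members and 113 (1.87%) at least 1.5-fold lower, around a median log2 ratio of 0.0094. In cells of 4000 UMIs or more, 166 (3.68%) were higher and 144 (3.19%) lower in Mettl3-CKO members without Xist, and 226 (4.39%) and 132 (2.56%) in those with Xist. Both genotype and sex of the pups differ between the libraries and cannot be told apart by these counts. With the Mettl3-CKO members weighted to the control's mix of Olig2, Atoh7, both and neither, 193 genes were higher and 102 lower.

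Cdkn1a, which encodes the cyclin-dependent kinase inhibitor p21 and is the best known p53 target, had the highest ratio. It lies on chromosome 17 at 29090976 to 29100727. In the control members it had 4 UMIs in 2 of 210 cells (0.952%), and in the Mettl3-CKO members 263 UMIs in 30 of 246 cells (12.2%), with a median of 4 and a highest value of 41 UMIs in the positive cells. Levels were 2.24 and 127 CPM, a log2 ratio of 5.83 (4.45 to 7.71). The gene was not confined to members. Among the other non-cycling cells it was detected in 4.22% of control and 14.3% of Mettl3-CKO cells, with a log2 ratio of 2.56, and in Müller-marker cells in 7.83% and 25.2%. The ratio in the members exceeded that in the other cells by 3.27 (1.83 to 4.71) on the log2 scale, and this distance rests on the 4 control UMIs. Within the Olig2 cells Cdkn1a had 0 and 77 UMIs and within the Atoh7 cells 3 and 113 UMIs. It was higher in Mettl3-CKO members without Xist, at 6.57, and with Xist, at 5.0. Thinned to 2000 UMIs per cell, 0 control and 17 Mettl3-CKO UMIs remained. With the control 0 set to 3 counts the log2 ratio was 2.24, and the lower limit of its interval was 1.78. Without the highest doublet scores 1 and 245 UMIs remained, a ratio of 7.70 (5.20 to 13.0).

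Of the p53 targets, 7 passed the filter, Cdkn1a through the Mettl3-CKO members. Cdkn1a alone was 1.5-fold or more higher, with a list median of 0.29. Among cell cycle exit regulators the inhibitors went apart. Beside Cdkn1a, Cdkn1c was lower in the Mettl3-CKO members, with 202 CPM in the control and 106 CPM in the Mettl3-CKO library, a log2 ratio of -0.93 (-1.18 to -0.68). Cdkn1b, the gene of p27, had -0.43 (-0.67 to -0.19).

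Among the genes with the highest library ratios, 3 were also examined within the Atoh7 cells, a choice made after their values were seen. Cntnap5a, a cell adhesion gene of the neurexin family, stood at 28.6 and 98.2 CPM in the members, a log2 ratio of 1.78 (1.33 to 2.25), and exceeded the ratio of the other cells by 1.47 (1.0 to 1.94). Of its UMIs, 16 of 51 in the control and 183 of 203 in the Mettl3-CKO members were in Atoh7 cells, where it had 29.9 CPM in the control and 197 CPM in the Mettl3-CKO library. Zfhx4, a zinc finger homeobox factor, had 20 and 81 UMIs, a log2 ratio of 1.81 (1.09 to 2.59) against -0.51 in the other cells, and in Atoh7 cells it had 7 and 77 UMIs. All 3 genes, Epha7 included, had fewer than 100 UMIs in the control members and reached that filter through the Mettl3-CKO members. With at least 3 markers required, the Zfhx4 ratio was -1.30, on the opposite side. The ephrin receptor Epha7 had 23.5 and 63.4 CPM, a log2 ratio of 1.43 (0.92 to 1.97), exceeding the other cells by 1.32 (0.76 to 1.87). Its ratio was 1.65 (0.90 to 2.49) in Atoh7 cells and 0.50 (-0.77 to 1.80) in Olig2 cells, and these intervals overlap. When the mix of members was held at that of the control, the ratio of Cntnap5a was 1.30.

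Other genes had ratios of the same sign in members and other cells. Crym, which binds thyroid hormone, stood at 535 and 217 CPM, with -1.30 (-1.47 to -1.14) in members and -1.01 in the other cells, a distance of -0.29 (-0.46 to -0.12). Rlbp1 had 115 and 42.6 CPM, with -1.44 against -0.97, a distance of -0.47 (-0.84 to -0.10). The microtubule gene Mapt had -1.17 and lay -0.33 (-0.79 to 0.13) from the other cells. By contrast, Tmem178, a membrane protein, had 60.0 and 17.9 CPM in the members, a log2 ratio of -1.74 (-2.32 to -1.19), and lay -1.89 (-2.51 to -1.26) from the other cells. Serinc5, a membrane protein as well, had -1.21 and lay -1.10 (-1.67 to -0.54) from them.

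**Figure D5:**
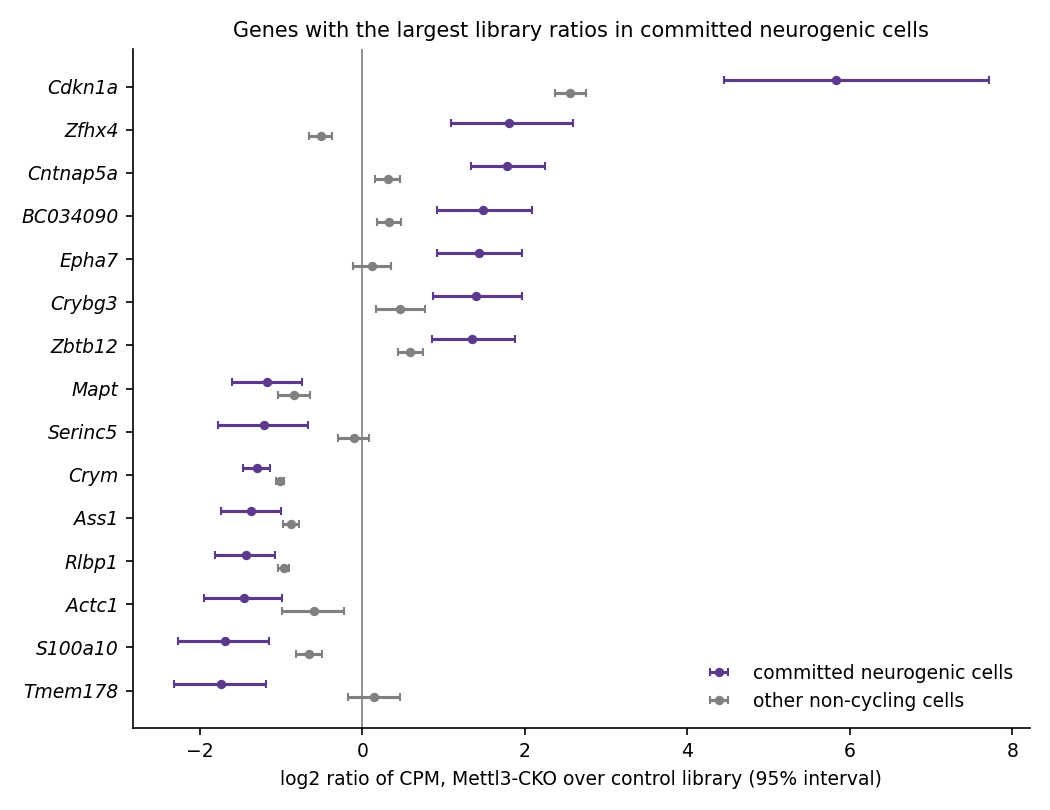
Mettl3-CKO over control ratios of CPM in committed neurogenic cells (purple) for 7 of the 8 highest genes and the 8 lowest, with the ratio of the same genes in the other non-cycling cells (grey). The x axis is the log2 ratio and the bars are 95% intervals for counting error. Cdkn1a lies at 5.83 and 2.56, and Tmem178 at -1.74 and 0.14.

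Few genes of the Notch pathway passed 1.5-fold between the libraries. Of the 2 ligands outside the rule that passed the filter none did, where Dll3 had 274 and 188 CPM, a log2 ratio of -0.54 (-0.73 to -0.34), and Dll1 had -0.41 (-0.67 to -0.15). Of 7 Notch targets and Hes family genes, 2 were at least 1.5-fold lower, Hes1 with -0.78 (-1.13 to -0.44) and Id3 with -0.88 (-1.25 to -0.51), and the median was -0.42. Of 5 receptors and modifiers, none passed 1.5-fold, and Notch1 had -0.091 (-0.29 to 0.11). The mix of Olig2 and Atoh7 cells differed between the libraries, and ratios within each are given beside these. Within the Atoh7 cells, Dll3 had 185 and 112 CPM and Hes5 434 and 157 CPM, and within the Olig2 cells Dll3 had 371 and 293 CPM, while Hes5 had 689 and 920 CPM. The ratio of Hes5 was thus -1.47 (-1.78 to -1.16) in Atoh7 cells and 0.42 (0.24 to 0.59) in Olig2 cells. Per cell over all members, Hes5 had a median of 0 and upper quartiles of 1.29 (control) and 1.35 (Mettl3-CKO) UMIs per 10000. The highest values were 75.6 and 95.9. Cells with many Hes5 UMIs weigh on these ratios, and the intervals do not cover the spread between cells. In the Olig2 cells Notch1 had 0.20 (-0.094 to 0.50) and Dll1 had -0.15 (-0.48 to 0.18), and in the Atoh7 cells -0.12 (-0.47 to 0.24) and -0.59 (-1.24 to 0.064). The differences between Olig2 and Atoh7 cells were not tested.

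Proneural factors and commitment genes had medians near 0, at -0.013 and -0.032. Of 12 proneural factors outside the rule, Sox12, a factor of the SoxC group, alone was at least 1.5-fold higher, with 34.7 and 77.4 CPM and a ratio of 1.16 (0.72 to 1.60). Neurog2 had -0.18 (-0.36 to -0.011) and Neurod4 had 0.053 (-0.015 to 0.12). In the commitment list 1 of 15 was 1.5-fold or more lower and none higher, and Gadd45g had -0.22 (-0.28 to -0.17). Of the 9 rod and bipolar precursor markers none passed 1.5-fold, and Otx2 had -0.0094 (-0.060 to 0.042). The horizontal and ganglion cell factor Onecut2, with 159 and 252 CPM, had a ratio of 0.67 (0.46 to 0.88).

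Lists of other cell types moved as well. Of 13 Müller glia markers, 6 were at least 1.5-fold lower, Rlbp1, Vim, Car2, Hes1, Id3 and Dbi, with a list median of -0.35 and summed levels of 4228 and 2911 CPM, and with Aqp4 and Npvf, of the 18 listed genes, at 0 in both libraries. Of 10 rod markers, 8 were at least 1.5-fold higher, with a median of 0.80 and none at 0, but the median was -1.02 in Mettl3-CKO cells without Xist and 1.26 in those with Xist. Nrl, the one photoreceptor fate factor of 9 past 1.5-fold, had 84.6 and 140 CPM. The few members with many rod markers described above held most of these UMIs, and their part in the rod ratios was not tested. Without the highest doublet scores the rod median was 0.94, from 8 genes. Of 10 genes that respond to tissue dissociation, 1 was lower, Dusp1 with -0.93, with a median of -0.17. Of 13 progenitor markers, 3 were lower, Hes1, Pcna and Cdkn1c, with a median of 0.028. Of 7 bipolar markers 1 was lower, of 3 cone markers 1, and of 4 amacrine markers and 1 vascular marker none passed 1.5-fold. No microglia, astrocyte or red blood cell marker passed the filter, and red blood cell markers summed to 19.1 and 1.45 CPM.

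Of the m6A-tagged genes, 8 passed the filter and 2 were at least 1.5-fold higher in the Mettl3-CKO members, with a list median of 0.49. The zinc finger gene Zfp292 stood at 272 and 599 CPM, a log2 ratio of 1.14 (0.99 to 1.29), and Ckap4, which anchors the endoplasmic reticulum to microtubules, at 161 and 292 CPM, a ratio of 0.86 (0.65 to 1.06). The study had chosen these 8 genes with these libraries in hand, so the list is not independent evidence of its direction. Of 16 genes that write, read or erase m6A, 3 were at least 1.5-fold higher, Mettl14, the partner of METTL3, with 0.68, the writer subunit Rbm15 with 0.96 and the RNA-binding protein Igf2bp1 with 0.91, and the median was 0.22. S phase genes had 3 higher and 1 lower of 11, with a median of 0.067, and other G2/M genes had 1 higher of 11, with a median of 0.11.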

How the data were processed

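Per the methods of the study and the labels, retinas were digested with papain, captured on the 10x 3′ V3.1 platform, and the authors trimmed reads with fastp, then aligned them to GRCm38 and made UMI counts per gene and cell with Cell Ranger 3.1.0. The deposited values are raw counts, with 8885792 control and 7874177 Mettl3-CKO matrix entries read, 66.4% and 44.5% of those the size lines name, and the last, incomplete cell of each was dropped. Whether counting used strand is not given in the sources used here, and 39 of 77 genes named or used as markers overlap another gene. The members and gene lists were chosen with earlier results of these data known.

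For each set of cells, UMIs were added up and divided by their total outside 13 mitochondrial genes (CPM). No pseudocount was used, a gene at 0 was set to a floor of 3 counts, and no test was made, since there was 1 library per group. Ratios have exact conditional binomial intervals (UMIs) or log-ratio intervals (shares of cells). Genes named are those of the rule and lists, and the highest and lowest ratios of each comparison (20 over the other cells, 8 per direction between libraries, 6 per direction for each comparison set, 10 per direction for Olig2 against Atoh7) that were seen in at least 10% of members (of either library for ratios between libraries), without predicted, ribosomal, mitochondrial and sex-linked genes. Results of a few genes are not reported here. The library totals were 20955138 and 19957693 UMIs. Doublets were scored with Scrublet in scanpy 1.11.5. Its automatic limit marked 0.0751% and 0.161% of cells and was not used, so no cell was removed, and leaving out the highest 5% was an alternative. Alternatives also changed the depth, marker and mitotic limits, the gene filter, scaling, thinning and the Xist split. The Olig2 against Atoh7 comparison, the weighting by it, the depth-matched cells, the stricter Neurod4-positive set and the doublet limit were added after seeing the data. The ratio script was checked on simulated data. Python 3.11.15, numpy 2.4.6, scipy 1.17.1, pandas 2.3.3 and matplotlib 3.10.9 were used.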

Additional observations from a re-analysis of the deposited data

How the results depend on the processing

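The ratio of member shares stayed above 1 under all alternatives run, from 1.27 among deep Mettl3-CKO cells with Xist to 1.59 without Dll4 in the rule. Gene counts moved with the cells kept, the gene filter and the cells compared with. With at least 3 markers, 90 genes were higher and 59 lower between libraries, and 68 higher and 44 lower than in other cells. Thinned to 2000 UMIs, these were 11 and 13, and 28 and 11. Genes of 30 UMIs or more gave 812 and 355, and 234 and 388, and genes with 1 UMI or more in each library gave 2130 and 1239 between libraries. Without Xist, 94 genes were higher and 104 lower than in other cells. Against other cells of matched depth 81 were higher. With members kept in the early neurogenic set, 60 were higher and 93 lower. The Zfhx4 library ratio was -1.30 with at least 3 markers. Library medians of 0.1 or more in size that moved to the other side of 0 were -0.068 for p53 targets, from 1 gene, and -0.13 for photoreceptor fate factors when thinned, and -0.15 for photoreceptor fate factors and -1.02 for rod markers without Xist, where the cause was not tested. Medians nearer to 0 that also crossed it were -0.41 for S phase genes with at least 3 markers, from 1 gene, -0.17 for progenitor markers without Xist, -0.070 for them with fewer than 2 mitotic genes and -0.030 with the control's mix, and 0.033 for proneural factors with that mix. No paired analysis was possible because each group was 1 library.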
